A study of Mus musculus with 12 samples.

Results

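The genes described here carry the glutathione system of epididymal white adipose tissue (eWAT), that is the glutathione transferases, the glutathione peroxidases and the enzymes that make and recycle glutathione. They were taken by name from the deposited expression table, as every gene whose name begins with the symbol of a cytosolic, mitochondrial or microsomal transferase or of a peroxidase (Gst with a class letter, Mgst or Gpx with a number), together with Gclc, Gclm, Gss and Gsr, and pseudogenes were left out. The table holds 34 such names, which correspond to 35 of the 22947 genes measured, because the entry named Gstm1 holds the transcripts of both Gstm1 and Gstm2. The tissue came from male C57BL/6J mice that were 21 weeks old and had eaten their diet for 16 weeks. Mice of the ND group received a normal diet and those of the HFD group a high-fat diet. In the CLE group the high-fat diet held an ethanol extract of chrysanthemum leaf at 1.5% (w/w), and in the LU group it held luteolin, a flavonoid of that plant, at 0.003% (w/w). RNA of 3 mice per group was sequenced, which gave 12 libraries, and the mice were picked as representative of larger groups.

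Glutathione is a tripeptide that cells build from glutamate, cysteine and glycine, with glutamate-cysteine ligase (Gclc and Gclm) as the rate-limiting step and glutathione synthetase (Gss) as the last. Peroxidases use it to reduce hydrogen peroxide and lipid hydroperoxides, transferases couple it to electrophiles such as the aldehydes left by lipid peroxidation, and glutathione reductase (Gsr) returns the oxidized form to use. In adipose tissue, whose cells hold large stores of oxidizable lipid, these enzymes clear reactive lipid products such as 4-hydroxynonenal, the main substrate of the alpha-class transferase Gsta4.

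Values are FPKM, a fragment count scaled to transcript length and to the size of the library, summed over the transcripts of a gene, so they can be set side by side between genes. Fold changes are differences of log2(FPKM + 1) between groups with their SE, and on this scale the change of weakly expressed genes is understated. A gene was called when limma's Benjamini-Hochberg adjusted p, taken over the 12775 genes tested, was under 0.05 and the fold change exceeded 1.5. A single gene in groups of 3 cannot reach an exact two-sided permutation p under 0.1. The depth is unknown, because no read counts are given. Gene totals lay between 435095 and 455040 FPKM per library. The whole tissue was extracted, so fewer cells of a type and less RNA per cell cannot be told apart in these values.

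Of the 35 genes, 28 reached 1 FPKM in at least 3 libraries and were tested. The other 7 stayed under 1 FPKM in all 12 libraries: Gsta1, Gsta2, Gstm3, Gstt4, Gpx5, and Gpx2 and Gpx6, which are listed at 0 throughout. Gpx2 is the peroxidase of the gut epithelium and Gpx5 that of the epididymis. The highest mean levels were those of the membrane-bound transferase Mgst1, the peroxidases Gpx1 and Gpx4, and the transferases Gstm1 and Gstz1. In ND mice Mgst1 alone made up 24.2% of the summed FPKM of all 35 genes, Gpx1 16.1%, Gpx4 13.6% and Gpx3 10.3%.

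Promoters are shown for the members called in the most comparisons, a choice made from these same data. Gsta3, Gsta4 and Gpx3 were called in 5 of 6 comparisons and Gstt1 in 4, and 3 of these 4 genes matched the RefSeq promoter table (GRCm38.p6). The window held the 250 bases before the RefSeq start, and it was shortened where the most abundant deposited transcript starts earlier. It is therefore not printed for Gstt1, whose main transcript starts 853 bases upstream of the RefSeq start, and it ends 82 bases short for Gpx3. Capitals mark the core of the antioxidant response element, TGACNNNGC, which was searched on both strands. The Gsta3 window lies at chr1:21240335-21240584 on the plus strand and the Gpx3 window at chr11:54902604-54902771 on the plus strand. A less abundant known transcript of Gpx3, with 83.8 to 120 FPKM in ND mice, starts further upstream, at chr11:54902453. The printed Gpx3 window thus lies within the span of that transcript.
Gsta3: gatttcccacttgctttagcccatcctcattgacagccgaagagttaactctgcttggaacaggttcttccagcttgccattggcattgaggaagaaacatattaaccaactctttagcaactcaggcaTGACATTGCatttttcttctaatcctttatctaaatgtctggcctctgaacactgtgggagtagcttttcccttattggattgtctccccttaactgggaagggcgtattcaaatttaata
Gpx3: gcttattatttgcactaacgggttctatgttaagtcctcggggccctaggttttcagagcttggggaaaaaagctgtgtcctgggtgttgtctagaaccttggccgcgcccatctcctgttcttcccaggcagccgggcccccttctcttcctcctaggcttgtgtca
The Gsta3 window held 1 match, TGACATTGC, from 121 to 113 bases before the start. The full windows of Gpx3 and Gstt1 held no match to these letters. A match was present for 5 of the 31 members with a promoter in the table (Gsta3, Gstm5, Gstm7, Mgst1 and Gclm), or 16.1%, and for 11.5% of all 27025 genes in it. The GC content of the 250 bases was 42% for Gsta3, 55.2% for Gpx3 and 52.8% for Gstt1, beside a median of 52.4% over all promoters.

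Much of this system was lower in eWAT of HFD mice. Against ND, 10 of the 28 tested members fell and 1 rose, where 10.8% of all genes tested were called lower and 14.9% were called higher. The median log2 fold change of the 28 members was -0.47, and that of all genes tested was -0.02. The 10 that fell were the transferases Gsta3, Gsta4, Gstm5, Gsto2, Gstt1, Gstt2, Mgst1 and Mgst3 and the peroxidases Gpx3 and Gpx8, and Gsto1 rose. By the adjusted p alone, 18 members were lower and 2 higher, where 24.8% of all genes tested were lower and 25.7% higher. The summed FPKM of all members was 3801, 4014 and 3809 in ND mice and 2531, 2613 and 2381 in HFD mice.

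CLE and LU each raised 8 members against HFD and lowered 0. With CLE, 6.33% of all genes tested were called higher and 10.1% lower, and with LU these shares were 4.81% and 7.64%. Gsta3, Gsta4, Gstt1, Gstt2, Mgst1, Gpx3 and Gpx8 rose in both comparisons, Gsto2 rose with CLE, and Mgst3 rose with LU. With no limit on the fold change, 11 members were higher and 0 lower with CLE, where 15.5% of all genes tested were higher and 18.1% lower, and 13 were higher and 0 lower with LU, where 13.2% were higher and 13.6% lower. The median log2 fold change of the 28 members was 0.30 with CLE and 0.41 with LU, beside 0.01 and 0.03 over all genes tested. Both comparisons use the same 3 HFD mice, which are also those compared with ND, so the 3 sets of calls are not independent of each other.

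**Figure D1:**
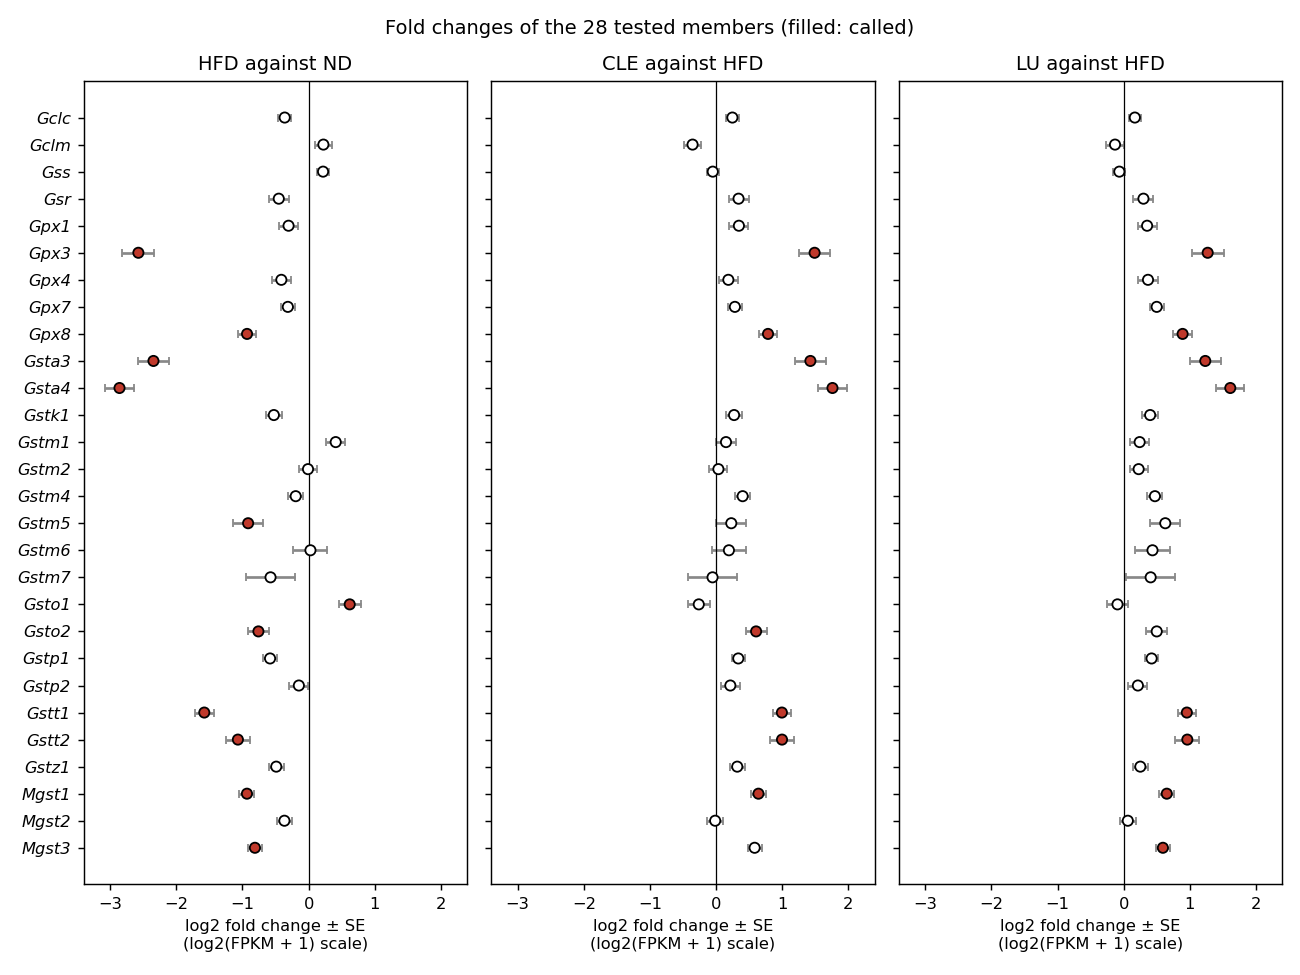
Log2 fold change with its SE for the 28 tested members, ordered from synthesis to recycling, peroxidases, cytosolic or mitochondrial and microsomal transferases, in HFD against ND, CLE against HFD and LU against HFD (3 mice per group). Filled points were called, and they lie on the left for 10 members and on the right for Gsto1 under HFD, and on the right for 8 members under CLE and for 8 under LU.

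The enzymes that build and recycle glutathione were not called in any of the 6 comparisons. Gclc, the catalytic subunit of glutamate-cysteine ligase, measured 12.7 to 16.1 FPKM in ND mice, 10.8 to 11.7 in HFD mice, 13.1 to 13.8 in CLE mice and 11.6 to 13.4 in LU mice. HFD mice were all below the lowest ND mouse, and the difference of -0.36 ± 0.09 had an adjusted p of 0.00798 but stayed under the fold change of 1.5. Gclm, the regulatory subunit, ranged from 15.1 to 25.1 FPKM over all libraries, and Gss from 7.93 to 11.2 FPKM. All CLE mice were below all HFD mice in Gclm, a difference of -0.36 ± 0.13 (adjusted p = 0.0593). In Gss all HFD mice were above all ND mice, by 0.22 ± 0.09 (adjusted p = 0.0629). Gsr ranged from 15.9 to 31.3 FPKM, and its highest value was that of ND mouse 2. All HFD mice, at 15.9 to 18.6 FPKM, were below all other mice in Gsr. The difference of HFD from ND was -0.45 ± 0.15 (adjusted p = 0.0269), under the fold change of 1.5. Assembled variants held 53.8% of the FPKM of Gsr. The sum of the 3 synthesis genes lay between 38.2 and 46.4 FPKM in all 12 libraries, with overlapping groups.

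Among the peroxidases, Gpx3, the form that is secreted into plasma, changed most. It measured 482, 393 and 322 FPKM in ND mice, 76.8, 61.2 and 59.1 in HFD mice, 206, 224 and 137 in CLE mice, and 179, 199 and 112 in LU mice. The HFD values lay below all 9 other libraries, and the CLE and LU values lay between those of HFD and ND. Its log2 fold changes were -2.57 ± 0.24 in HFD against ND (adjusted p = 7.36e-06), 1.49 ± 0.24 in CLE against HFD (adjusted p = 0.00075) and 1.27 ± 0.24 in LU against HFD (adjusted p = 0.00307). The share of Gpx3 in the summed FPKM of the members was 10.3% in ND, 2.62% in HFD, 5.66% in CLE and 4.74% in LU mice.

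Gpx8, a membrane protein of the endoplasmic reticulum, measured 19.7, 30.0 and 25.2 FPKM in ND mice, 10.9, 13.1 and 13.5 in HFD mice, 23.4, 21.5 and 21.6 in CLE mice and 21.5, 26.3 and 24.2 in LU mice. All HFD values were lower than those of every other mouse, and the other 3 groups overlapped. The groups differed on the log2 scale by -0.93 ± 0.14 in HFD against ND (adjusted p = 0.000233), 0.78 ± 0.14 in CLE against HFD (adjusted p = 0.00143) and 0.89 ± 0.14 in LU against HFD (adjusted p = 0.00107). Gpx7, its close relative in the same compartment, was not called, with values of 13.4 to 15.3 FPKM in HFD mice and of 16.1 to 22.6 in the other mice.

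The most abundant peroxidases did not pass the call. Gpx1, the cytosolic enzyme for hydrogen peroxide, measured 648, 590 and 637 FPKM in ND mice, 528, 511 and 480 in HFD mice, 626, 740 and 573 in CLE mice and 584, 832 and 557 in LU mice. Its HFD values were the 3 lowest, and the difference from ND was -0.30 ± 0.14 (adjusted p = 0.101). Gpx4, which reduces phospholipid hydroperoxides within membranes and guards against ferroptosis, measured 399, 627 and 560 FPKM in ND, 385, 410 and 376 in HFD, 403, 463 and 468 in CLE and 460, 530 and 525 in LU mice. ND mouse 2 stood within the HFD range, and the difference of HFD from ND was -0.41 ± 0.14 (adjusted p = 0.0327), under the fold change of 1.5. The table holds a further assembled transcript under the name Gpx4 with 42790 to 134569 FPKM, far from the gene, at chr10:45875286-45875659, and it matches no Ensembl transcript and was left out.

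The alpha-class transferase Gsta4 had the largest fold change of the 28 members between HFD and ND. It lies at chr9:78182774-78209349 on the plus strand (GENCODE M21, GRCm38) and measured 21.2, 26.8 and 22.3 FPKM in ND mice and 2.31, 3.01 and 1.84 in HFD mice. With CLE it measured 13.0, 11.9 and 7.13 FPKM, and with LU 9.64, 11.4 and 7.16. No CLE or LU value reached the ND range or the HFD range. On the log2 scale, the differences were -2.86 ± 0.21 in HFD against ND (adjusted p = 1.62e-06), 1.76 ± 0.21 in CLE against HFD (adjusted p = 0.000119) and 1.61 ± 0.21 in LU against HFD (adjusted p = 0.000431).

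Gsta3, an alpha-class enzyme that conjugates the epoxide of aflatoxin (chr1:21240589-21265661, plus strand), measured 114, 149 and 111 FPKM in ND, 23.6, 30.3 and 18.2 in HFD, 70.9, 84.2 and 45.7 in CLE and 61.0, 64.1 and 46.6 in LU mice. The order of the groups was that of Gsta4, and CLE and LU overlapped. Its log2 fold changes were -2.34 ± 0.23 in HFD against ND (adjusted p = 1.18e-05), 1.43 ± 0.23 in CLE against HFD (adjusted p = 0.000841) and 1.23 ± 0.23 in LU against HFD (adjusted p = 0.00314). Within the CLE group the lowest value of Gsta3, Gsta4 and Gpx3 was in each case that of mouse 11, and within the LU group that of mouse 8. These same mice had the highest summed macrophage markers of their groups, at 1090 and 1259 FPKM, and the part of this in the result was not tested.

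The theta-class genes Gstt1 and Gstt2 lie on chromosome 10 on either side of Gstt4, which was under 1 FPKM in all libraries, and act on small halogenated compounds, sulfate esters and peroxides. Gstt1 measured 80.7, 57.4 and 60.8 FPKM in ND mice, 21.3, 23.6 and 19.3 in HFD mice, 43.1, 50.9 and 37.4 in CLE mice and 41.1, 41.7 and 44.0 in LU mice. The HFD, the supplemented and the ND mice occupied separate ranges, while CLE and LU overlapped. The groups differed on the log2 scale by -1.58 ± 0.14 in HFD against ND (adjusted p = 5.26e-06), 0.99 ± 0.14 in CLE against HFD (adjusted p = 0.000323) and 0.95 ± 0.14 in LU against HFD (adjusted p = 0.000729).

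Gstt2 measured 45.02, 26.4 and 30.6 FPKM in ND, 15.5, 13.7 and 16.8 in HFD, 33.3, 34.5 and 27.1 in CLE and 26.0, 35.2 and 31.6 in LU mice. HFD mice were the 3 lowest, and the other groups overlapped. Of the FPKM of Gstt2, 39.6% came from assembled variants. On the log2 scale, the differences were -1.07 ± 0.18 in HFD against ND (adjusted p = 0.000513), 1.00 ± 0.18 in CLE against HFD (adjusted p = 0.00153) and 0.96 ± 0.18 in LU against HFD (adjusted p = 0.00293). Gstt3, a further theta gene, is listed under the capital-letter name GSTT1 together with Ddt and so was not among the members, and it measured 11.7 to 16.1 FPKM in ND, 5.91 to 6.91 in HFD, 8.52 to 15.2 in CLE and 9.98 to 10.99 in LU mice.

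**Figure D2:**
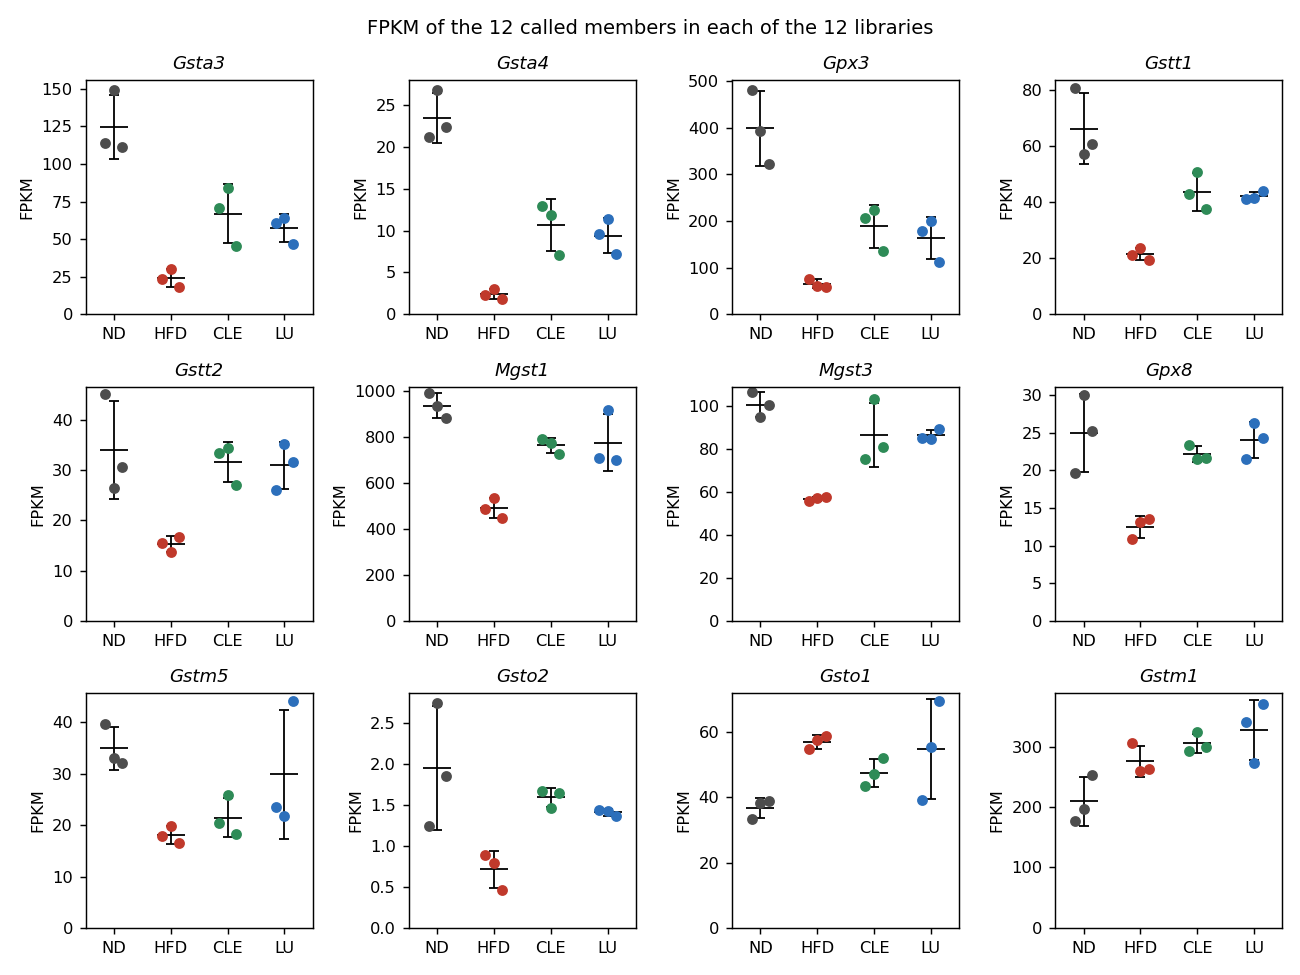
FPKM of the 12 members called in at least 1 comparison, with 1 point per mouse and the mean and SD of 3 mice per group as lines. HFD values lie below all other mice for Gsta3, Gsta4, Gpx3, Gstt1, Gstt2, Mgst1, Mgst3, Gpx8 and Gsto2, while Gsto1 is higher in HFD than in ND mice.

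The omega-class genes, which reduce dehydroascorbate, lie side by side on chromosome 19, and under HFD Gsto1 rose while Gsto2 fell. Gsto1 measured 33.3, 38.2 and 38.8 FPKM in ND and 54.8, 57.5 and 58.9 in HFD mice, a log2 fold change of 0.62 ± 0.16 (adjusted p = 0.00843). It was the only tested member called higher in HFD mice. CLE mice measured 43.5, 47.1 and 52.0 FPKM and LU mice 39.3, 55.5 and 69.7, and neither group was called against HFD. Without ND mouse 2 the HFD difference was 0.55 and under the fold change of 1.5, after quantile normalization it was 0.57, and with a letter R that 4 of the labels carry as a covariate it was 0.52.

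Gsto2 is a low-level gene, with 1.24, 2.75 and 1.86 FPKM in ND, 0.888, 0.799 and 0.464 in HFD, 1.68, 1.46 and 1.65 in CLE and 1.44, 1.43 and 1.36 in LU mice. HFD mice were again the 3 lowest. All 3 HFD values were below 1 FPKM, so Gsto2 entered the test only through the groups where it is high, while the other 27 tested members reached 1 FPKM in all 12 libraries. Without Gsto2, the counts were 9 lower and 1 higher for HFD against ND and 7 higher for CLE against HFD. It fell by 0.76 on the log2 scale under HFD (SE 0.16, adjusted p = 0.00204) and rose by 0.60 ± 0.16 with CLE (adjusted p = 0.0123), while the difference of LU from HFD, 0.50 ± 0.16, had an adjusted p of 0.0364 and stayed under the fold change of 1.5. The fall was 0.57 without ND mouse 3, and the rise with CLE was 0.49 without HFD mouse 18 (adjusted p = 0.0558) and 0.58 without CLE mouse 2.

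The mu class, a cluster on chromosome 3, did not move as a block. Gstm1, its most abundant gene, measured 177, 198 and 254 FPKM in ND, 305, 259 and 264 in HFD, 293, 324 and 300 in CLE and 341, 273 and 370 in LU mice. ND mice were the 3 lowest of the 12, and LU against ND was called at 0.65 ± 0.14 (adjusted p = 0.0135), while HFD against ND gave 0.41 ± 0.14 (adjusted p = 0.0327) under the fold change of 1.5. The LU difference fell below that fold without ND mouse 2 (0.54), without LU mouse 8 (0.56) and when Gstm1 and Gstm2 were summed as the deposited name has them (0.50).

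Gstm5 measured 39.7, 33.0 and 32.1 FPKM in ND and 17.8, 19.9 and 16.5 in HFD mice, a log2 fold change of -0.91 ± 0.22 (adjusted p = 0.00543). CLE mice measured 20.3, 25.8 and 18.3 FPKM and overlapped with HFD mice, and LU mice measured 23.6, 21.8 and 44.3. LU mouse 8 exceeded all other mice in this gene. The same mouse had the highest value of Gstm6, at 13.6 FPKM beside 3.86 to 7.58 in the other 11 mice, of Gstm7, at 10.4 beside 2.32 to 5.91, and of Gsto1. The 10 epididymis markers summed to 5.64 FPKM in LU mouse 8 and to 5.62 in ND mouse 4, which had no such high values of Gstm5, Gstm6 or Gstm7, and to at most 2.17 in the other mice. Spag11b measured 2.34 and Adam7 2.08 FPKM in LU mouse 8, and both were at most 0.188 FPKM elsewhere. Crisp1 measured 1.23 FPKM there beside 5.13 in ND mouse 4, and Lcn5, Lcn8, Lcn9, Cst8, Cst12 and Defb20 were at 0 in LU mouse 8. The part of such tissue in these values was not tested. Gstm2 and Gstm4 were not called in any comparison, with 97.8 to 161 and 17.96 to 29.5 FPKM over all libraries. The mu genes are close copies of each other, and 18.9% of the FPKM of Gstm1 and 35.3% of that of Gstm2 came from assembled variants, so the split between them is uncertain.

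**Figure D3:**
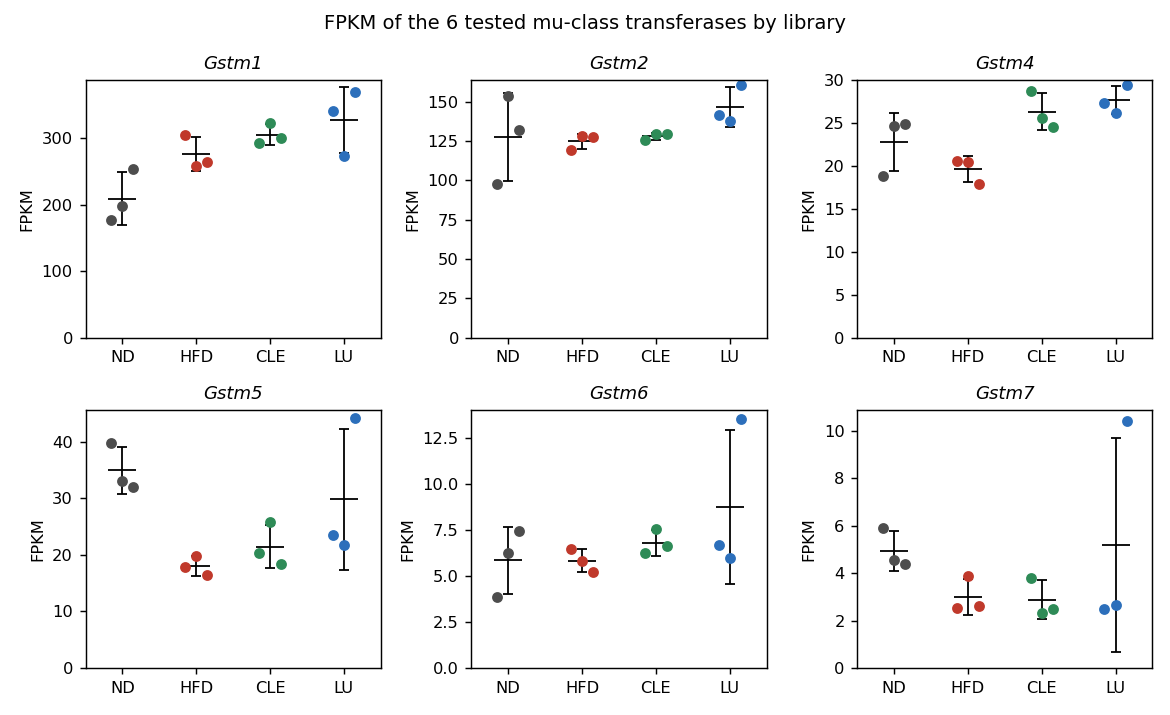
FPKM of the 6 tested mu-class transferases, with 1 point per mouse and the mean and SD of 3 mice per group as lines. The single high LU point in Gstm5 (44.3 FPKM), Gstm6 (13.6) and Gstm7 (10.4) is mouse 8 in each panel, while Gstm1 is lowest in the ND mice.

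The remaining soluble transferases stayed under the fold change of 1.5 in every comparison. Gstz1, which isomerizes maleylacetoacetate in tyrosine breakdown, measured 274, 364 and 313 FPKM in ND, 209, 259 and 209 in HFD, 303, 268 and 269 in CLE and 264, 271 and 267 in LU mice. Its HFD values were the 3 lowest, with a difference from ND of -0.49 ± 0.12 (adjusted p = 0.00474). Gstk1, a transferase of mitochondria and peroxisomes, measured 21.2 to 25.8 FPKM in HFD mice and 27.9 to 41.0 in the other mice, a difference from ND of -0.52 ± 0.12 (adjusted p = 0.00436). Gstp1 differed by -0.58 ± 0.10 (adjusted p = 0.000618), just under the fold change of 1.5, but its whole value came from an assembled transcript that also spans the near-identical Gstp2. Gstp2 itself measured 5.70 to 9.13 FPKM over all libraries.

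The microsomal transferases are integral membrane proteins, of which Mgst1 also reduces lipid hydroperoxides. Mgst1 measured 992, 933 and 882 FPKM in ND mice, 489, 534 and 449 in HFD mice, 791, 774 and 727 in CLE mice and 707, 919 and 701 in LU mice. Every HFD value was below every other, and LU mouse 3 reached the ND range. Its log2 fold changes were -0.93 ± 0.11 in HFD against ND (adjusted p = 4.78e-05), 0.64 ± 0.11 in CLE against HFD (adjusted p = 0.0013) and 0.65 ± 0.11 in LU against HFD (adjusted p = 0.00187). The rise was 0.58 with CLE without HFD mouse 18 and 0.52 with LU without LU mouse 3, both under the fold change of 1.5.

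Mgst3 measured 107, 94.9 and 101 FPKM in ND, 55.8, 57.1 and 57.8 in HFD, 75.2, 103 and 80.9 in CLE and 85.0, 84.5 and 89.4 in LU mice. The HFD mice were nearly alike and all below the others. The groups differed on the log2 scale by -0.81 ± 0.11 in HFD against ND (adjusted p = 8.93e-05) and 0.59 ± 0.11 in LU against HFD (adjusted p = 0.0024). The difference of CLE from HFD was 0.58 ± 0.11 (adjusted p = 0.00169), just under the fold change of 1.5, and the LU difference went under it without HFD mouse 12 (0.58) or LU mouse 8 (0.57). Mgst2, which also has leukotriene C4 synthase activity, was not called and measured 24.0 to 39.9 FPKM. Its difference of HFD from ND was -0.37 ± 0.12 (adjusted p = 0.0244). Against HFD it differed by -0.01 ± 0.12 with CLE and 0.06 ± 0.12 with LU, and all HFD, CLE and LU mice were below all ND mice.

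**Figure D4:**
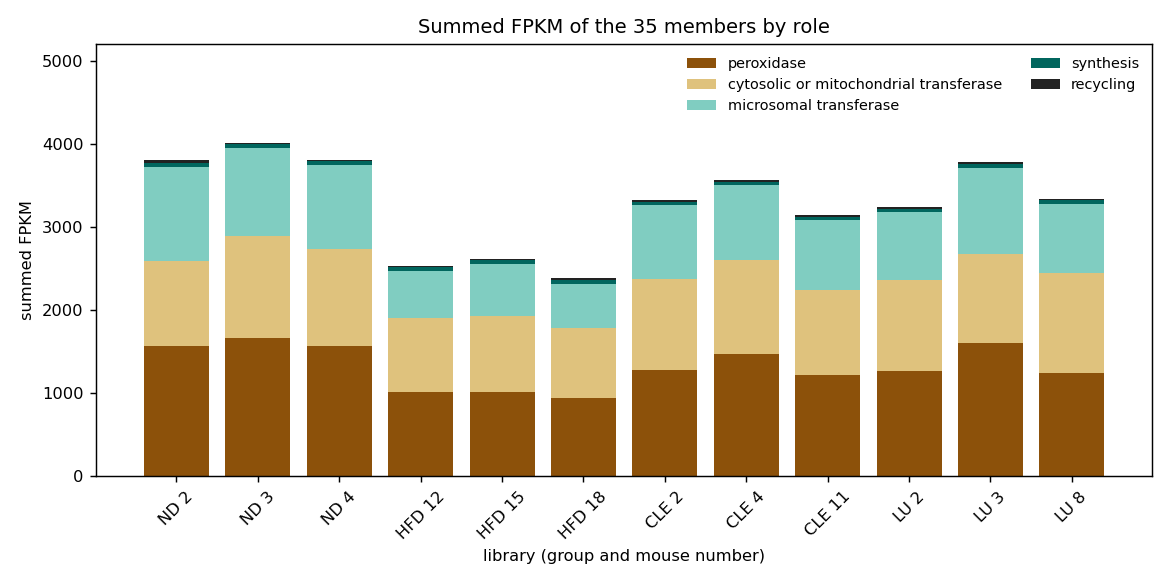
Summed FPKM of the 35 members in each library, stacked by role. The totals are 2381 to 2613 FPKM in HFD mice, 3801 to 4014 in ND mice and 3145 to 3775 in CLE and LU mice, and the synthesis and recycling genes are thin bands at the top of each bar.

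By role, peroxidases summed to 1563 to 1658 FPKM in ND, 942 to 1016 in HFD, 1218 to 1467 in CLE and 1238 to 1609 in LU mice. Microsomal transferases summed to 1016 to 1138, 536 to 621, 836 to 905 and 816 to 1036 FPKM in the same order. In both roles the HFD mice lay below all others. Cytosolic and mitochondrial transferases differed less, at 1023 to 1227 FPKM in ND, 839 to 919 in HFD, 1027 to 1129 in CLE and 1068 to 1213 in LU mice. Here too the HFD mice lay below all others.

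No difference between CLE and LU passed the test in any member. Of the 28 members, 0 were called, and 0 reached an unadjusted p under 0.05, where 0.00783% of all genes tested (1 gene) was called. The lowest adjusted p among the members was 0.891. The difference CLE minus LU was 0.15 for Gsta4 with a 95% interval from -0.32 to 0.62, 0.19 for Gsta3 (-0.32 to 0.70), 0.22 for Gpx3 (-0.31 to 0.74), 0.04 for Gstt1 (-0.27 to 0.35) and -0.01 for Mgst1 (-0.26 to 0.24). The widest interval, that of Gstm7, ran from -1.27 to 0.34. A difference of 1.5-fold in Gsta4, Gsta3 or Gpx3 is thus within these intervals. The 2 diets held different amounts of different substances, and the doses were not matched.

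Against ND, the supplemented mice still had lower values of a few members. With CLE, 3 members were called lower and 0 higher, where 0.853% of all genes tested were called lower and 2.06% higher. These were Gsta4 at -1.10 ± 0.21 (adjusted p = 0.0189), Gpx3 at -1.08 ± 0.24 (adjusted p = 0.0297) and Gsta3 at -0.92 ± 0.23 (adjusted p = 0.0461). By the adjusted p alone, 4 members were lower and 1 higher, where 1.91% of all genes tested were lower and 3.26% higher. All 3 calls were lost without ND mouse 2, ND mouse 3 or CLE mouse 11, and in a fit of only the CLE and ND groups, and that of Gsta3 was kept in 2 of the 12 fits that left out 1 library. With the letter R of the labels as a covariate, 1 of the 3 calls was kept, as the adjusted p was 0.0756 for Gsta3 and 0.0535 for Gpx3. With LU, 4 members were called lower, where 1.62% of all genes were, and Gstm1 was called higher, where 4.97% were. Gpx3 differed by -1.30 ± 0.24 (adjusted p = 0.00594), Gsta4 by -1.25 ± 0.21 (adjusted p = 0.00435), Gsta3 by -1.11 ± 0.23 (adjusted p = 0.0109) and Gstt1 by -0.62 ± 0.14 (adjusted p = 0.015). Without LU mouse 8 the adjusted p of Gsta3 was 0.0506, and without ND mouse 2 the difference of Gstt1 was -0.47.

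Other genes of the pathway moved in both directions under HFD. Over all genes tested, 14.9% were called higher and 10.8% lower under HFD. With CLE these shares were 6.33% and 10.1%, and with LU 4.81% and 7.64%. Several counts in the lists that follow lie near these shares. Of 8 tested genes of cysteine supply, 0 were called between HFD and ND, and 2 rose with CLE and 1 with LU. Slc1a1, a glutamate and cysteine transporter, measured 1.60 ± 0.31 FPKM (mean ± SD, n = 3) in HFD, 4.22 ± 0.50 in CLE and 3.61 ± 0.56 in LU mice and rose with both. Cbs, which makes cystathionine, rose with CLE by 0.67 on the log2 scale (adjusted p = 0.0045). Slc7a11, the cystine carrier, stayed at or under 0.337 FPKM in all libraries.

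Of 10 tested genes of glutathione turnover, 2 rose and 2 fell under HFD, 1 rose and 2 fell with CLE, and the counts with LU were the same as with CLE. Dpep2 and Anpep, peptidases of the cell surface that cleave small peptides, measured 2.23 ± 0.26 and 8.02 ± 0.92 FPKM in ND and 31.6 ± 2.10 and 85.0 ± 10.1 in HFD mice. Both fell with CLE and with LU. Chac1, which cleaves glutathione within the cell, went the other way, at 14.8 ± 3.09 FPKM in ND and 4.98 ± 0.53 in HFD mice, and rose with CLE and with LU.

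Among 20 tested genes of thiol reduction, 4 fell and 0 rose under HFD, and 2 rose and 1 fell with CLE and likewise with LU. Txnip, the inhibitor of thioredoxin, fell by 1.16 on the log2 scale under HFD (adjusted p = 2.2e-05) and rose with both supplements, and the mitochondrial glutaredoxin Glrx5 fell by 0.83 and rose with CLE. Glrx3, a cytosolic glutaredoxin, fell by 0.73 under HFD.

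The list for the pathway of the transcription factor NRF2 holds antioxidant genes and also regulators such as Nfe2l2, Keap1, Bach1 and Mafk. More of its genes rose than fell in HFD mice. Of 23 tested, 6 rose and 1 fell under HFD, where 14.9% of all genes tested were called higher and 10.8% lower. With CLE 1 rose and 4 fell, and likewise with LU. Hmox1, heme oxygenase, rose from 13.1 ± 0.36 FPKM in ND to 58.3 ± 6.56 in HFD mice and fell with CLE and with LU. Akr1b8, an aldehyde reductase, rose by 1.63 and Srxn1, sulfiredoxin, by 1.23 under HFD, and both fell with CLE and with LU. The summed FPKM of the 12 macrophage markers moved in the same direction as Hmox1, Akr1b8 and Srxn1, and its part in them was not tested. Ephx1 was also higher under HFD, at 123.5, 118.5 and 108.3 FPKM beside 38.4, 40.8 and 61.0 in ND mice. It measured 84.2, 95.1 and 123.1 FPKM in CLE and 106, 97.2 and 129.7 in LU mice, and both groups overlapped with HFD. Its difference from ND was the highest of the list, at 1.11 with CLE and 1.25 with LU on the log2 scale.

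Of 10 genes of NADPH supply, 3 rose and 0 fell under HFD, 1 rose and 2 fell with CLE, and 0 rose and 2 fell with LU. Mthfd2 rose by 1.43, Idh1 by 0.97 and G6pdx by 0.71 under HFD. Of 11 tested genes with a related transferase or membrane fold, 3 rose under HFD, 3 fell and 1 rose with CLE, and 3 fell with LU. They were Hpgds, the sigma-class transferase that makes prostaglandin D2, at 1.96 ± 0.21 FPKM in ND and 26.3 ± 5.20 in HFD mice, Alox5ap, which serves leukotriene synthesis, and Clic1, and all 3 fell with both supplements. Of 10 genes for selenoprotein synthesis, on which Gpx1, Gpx3 and Gpx4 depend, 1 rose and 2 fell under HFD, 2 rose and 1 fell with CLE and 2 rose with LU. Trit1, which modifies the selenocysteine transfer RNA, fell by 1.40 and Sephs2, which makes selenophosphate, by 1.35 under HFD, and both rose with CLE and with LU, while the selenium carrier Selenop rose by 0.75 under HFD.

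RNA of cell type markers moved with the diets, and the part of cell makeup in the results was not tested. Of 12 macrophage markers, 12 rose under HFD and 12 fell with CLE and with LU, and their summed FPKM was 369 to 547 in ND, 3027 to 3541 in HFD, 644 to 1090 in CLE and 1053 to 1259 in LU mice. Of 12 adipocyte markers, 10 fell under HFD, 10 rose with CLE and 5 with LU, with sums of 39000 to 41090 FPKM in ND, 20250 to 22690 in HFD, 30600 to 35020 in CLE and 29340 to 35000 in LU mice. The median log2 fold change of the adipocyte markers under HFD was -0.84, with a range from -3.52 (Cfd) to 0.04 (Lpl). The 10 members called lower ranged from -2.86 (Gsta4) to -0.76 (Gsto2). None of the defining adipocyte or macrophage markers was at 0 in any group. Of 11 progenitor or fibroblast markers 4 rose and 1 fell under HFD (sums 1574 to 1758 FPKM in ND, 2146 to 2245 in HFD, 1316 to 1571 in CLE, 1512 to 1816 in LU), of 8 endothelial markers 2 fell (332 to 532, 236 to 383, 404 to 568, 446 to 517), of 7 tested mesothelial markers 5 fell (12.1 to 66.3, 2.34 to 7.75, 7.94 to 12.8, 13.2 to 18.4), and of 5 tested red blood cell markers 5 fell (571 to 2290, 188 to 308, 273 to 1172, 447 to 741). Epididymis markers summed to at most 5.64 FPKM in any library, with Lcn5 and Defb20 at 0, skeletal muscle markers to at most 16.3, kidney or testis markers to at most 2.50, with Kap at 0, and the liver list, of 924 to 1395 FPKM in ND, 4141 to 5354 in HFD, 1475 to 2542 in CLE and 2147 to 4059 in LU mice, consisted nearly only of Hp, which adipose tissue also makes. Against HFD, 3 progenitor markers fell with CLE and 3 fell and 1 rose with LU, 3 and 4 endothelial markers rose, 1 mesothelial marker rose with each, and 0 red blood cell markers were called. Of 7 tested liver genes 1 rose and 2 fell under HFD, 2 rose and 1 fell with CLE and 1 fell with LU. The 1 epididymis marker tested was not called, and 0 markers of skeletal muscle, kidney or testis were tested.

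The labels of 4 libraries carry a letter R whose meaning is not given in the sources used here, and these are CLE mouse 4, LU mouse 2 and the ND mice 3 and 4. The column headers of these 4 libraries, and of no other library used, share a date-like number as well. No HFD library carries the letter, so HFD could not be compared within it. With the other 8 libraries only, all 8 calls for CLE against HFD and all 8 for LU against HFD were kept. In that fit ND is mouse 2 alone, which is assumed to vary like the mice of the other groups, and 10 of 11 calls were kept for HFD against ND, 0 of 3 for CLE against ND and 2 of 5 for LU against ND.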

How the data were processed

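RNA of eWAT from 3 mice of each of the ND, HFD, CLE and LU groups was measured. The authors extracted the whole tissue, prepared paired-end mRNA libraries and deposited FPKM values per transcript, with 1 column per library. Per the submitters' processing notes, CASAVA 1.8.2, Bowtie2 2.2.3, TopHat2 2.0.12 and Cufflinks 2.2.1 were used. The genome build is not given in the sources used here. The table has 15 FPKM columns, of which 3 belong to no sample listed and were left aside. The column headed MD4 was taken as ND mouse 4 by inference. Columns of the authors' own comparisons were not used.

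Of 152210 transcripts, 140416 carry an Ensembl transcript identifier of GENCODE release M21 (GRCm38), as the known transcript or as an assembled form of it (class code = or j), and were summed to 22947 genes. Known transcripts of both sources had the same start and end in 87.6% of cases. The other transcripts, with 65.8% to 92.9% of each library's FPKM, were left out, among them 1 Mgst2 transcript listed at 0. FPKM carry no depth, so precision rests on the spread between mice. Each library carries the number of 1 mouse in its label.

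The 12775 genes that reached 1 FPKM in at least 3 libraries entered a linear model in limma (version 3.58.1, R version 4.3.3). The response was log2(FPKM + 1), every library was included, each group had its own coefficient, there was no covariate, and the empirical Bayes step used no trend. The method was tested on simulated data for HFD against ND: 185 of 200 genes changed by 1 on the log2 scale were recovered with 5 others called (12596 genes), and 192 of 200 changed by 2, with 4 others (12591 genes). Python (3.11.15) with numpy (2.4.6), pandas (2.3.3) and, for plots, matplotlib (3.10.9) was used.

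The members and the gene lists were chosen with earlier results of these data known. Values in every library are given for members called in at least 1 comparison and for the 5 with the highest mean, and the other members are given by range. Of each pathway list, up to 3 genes with the largest change among those called against HFD or between HFD and ND are named. In the NRF2 list Srxn1 is named in addition to these. Slc7a11, Spag11b, Adam7 and Gstt3 were named after their values were seen.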

Additional observations from a re-analysis of the deposited data

How the results depend on the processing

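No alternative reversed the direction of a called member. Of 916 refits of single called members, 851 kept the call and 65 lost it. For CLE against ND the count of 3 called members was 1 without a filter on low FPKM, 0 in a fit of only the groups compared, 5 by the adjusted p alone, 0 with the mouse number as a replicate block and 1 with only the libraries without the letter R, an alternative chosen after seeing the data. It lay between 0 and 4 when 1 library was left out. By the adjusted p alone, HFD against ND had 20 called members in place of 11, with 18 lower and 2 higher. For that comparison 24.8% of all genes were lower and 25.7% higher. LU against HFD had 13 in place of 8, all of them higher, where 13.2% of all genes were higher and 13.6% lower. Leaving out 1 library gave 10 to 14 members for HFD against ND, 7 to 9 for CLE against HFD, 7 to 8 for LU against HFD, 0 to 0 for CLE against LU, and 3 to 6 for LU against ND, with the 3 reached without ND mouse 2. The causes were not tested. The replicate block, fitted to the ND, CLE and LU mice since HFD shares no number with them, gave 4 called members for LU against ND and 0 for CLE against LU. Mice of the same number did not deviate together (r of -0.099 to 0.189 over genes for 5 pairs), so the numbers were not taken as a pairing. The other alternatives were a pseudocount of 0.1, a filter on a mean of 5 FPKM, 3 scalings between libraries, a trend in the moderation, the letter R as a covariate, the most abundant transcript in place of the sum, no assembled variants, and rows summed by the deposited name, and each left the member counts within 1.5 times. With the letter R as a covariate, though, 1 of the 3 calls for CLE against ND was kept, and the count of 2 came from 1 lower and 1 higher member. The filter on a mean of 5 FPKM gave no value for Gsto2. Depth was not given, so low members such as Gsto2 are the least certain.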
